A study of Mus musculus with 16 samples.

Results

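The miR-106a-to-miR-363 cluster on the X chromosome and the miR-106b-to-miR-25 cluster within the gene Mcm7 are paralogs of the miR-17-to-miR-92a cluster, and 7 of their microRNAs (miRs) were followed over 6 sorted populations of early mouse blood formation. The members were taken by name from the array's own annotation, 4 from the X-linked cluster (mmu-miR-106a, mmu-miR-18b, mmu-miR-20b and mmu-miR-363) and 3 from the Mcm7-hosted cluster (mmu-miR-106b, mmu-miR-93 and mmu-miR-25), of 577 miRs on the array. Of these 7, 6 were bright enough to be tested. miR-18b reached detection, a scanner call of well above background, on 0 of 16 arrays. RNA came from the bone marrow of young adult female C57Bl/6 mice, with several mice pooled for each replicate, and no treatment or allele is named in the labels. Whether replicates came from separate sorts is not stated, so p-values measure the spread between these arrays, which may be technical in part. Marrow was depleted of lineage-positive cells and enriched for c-kit before sorting. The HSC subsets were long-term hematopoietic stem cells (LT-HSC, 1 array), short-term HSC (ST-HSC, 3 arrays) and multipotent progenitors (MPP, 3 arrays). The myeloid side held the common progenitor (CMP), its granulocyte-monocyte descendant (GMP) and its megakaryocyte-erythroid descendant (MEP), with 3 arrays each. HSC subsets and myeloid progenitors were sorted separately, so the sort and the kind of cell cannot be told apart.

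A miR guides the silencing machinery to messages that pair with its seed, the bases near its 5′ end, so miRs with one seed share many targets. The miR-17 cluster and its paralogs arose by duplication, carry the same few seeds and are known for promoting cell cycle entry and survival of blood progenitors, among other targets through the cell cycle inhibitor p21 and the proapoptotic protein Bim. The Mcm7-hosted cluster lies within a gene that encodes a subunit of the replicative helicase, and is transcribed with it. The X-linked cluster has been described as an integration site of leukemia viruses.

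The mature sequences, from RefSeq with coordinates on GRCm38.p6, are shown because the members differ so little that an array probe may not tell them apart. Bases 2 to 8, the seed, are in capitals. All 7 lie on the minus strand. The first group has the seed AAAGUGC and holds 4 members, followed by their relatives from the miR-17 cluster, miR-17 and miR-20a.
mmu-miR-106a: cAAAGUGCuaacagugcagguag
mmu-miR-20b: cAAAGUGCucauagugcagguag
mmu-miR-106b: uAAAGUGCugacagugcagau
mmu-miR-93: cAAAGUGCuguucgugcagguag
mmu-miR-17: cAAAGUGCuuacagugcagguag
mmu-miR-20a: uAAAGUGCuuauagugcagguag
The second group has the seed AAGGUGC and holds 1 member, miR-18b, beside miR-18a of the miR-17 cluster.
mmu-miR-18b: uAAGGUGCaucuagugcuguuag
mmu-miR-18a: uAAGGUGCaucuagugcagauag
The third group has the seed AUUGCAC and holds 2 members, miR-363 and miR-25, beside miR-92a.
mmu-miR-363: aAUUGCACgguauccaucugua
mmu-miR-25: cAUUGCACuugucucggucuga
mmu-miR-92a: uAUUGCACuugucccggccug

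On the X chromosome miR-106a lies at chrX:52742541-52742563, miR-18b at chrX:52742381-52742403, miR-20b at chrX:52742159-52742181 and miR-363 at chrX:52741697-52741718. On chromosome 5 miR-106b lies at chr5:138165787-138165807, miR-93 at chr5:138165574-138165596 and miR-25 at chr5:138165332-138165353, all within the span of Mcm7 at chr5:138164583-138172111. The X-linked miRs fell within no annotated gene other than their own. Over their whole length miR-106a and miR-17 differ at 1 position, miR-20b and miR-20a at 2, miR-18b and miR-18a at 2 and miR-93 and miR-17 at 4. The mature miR-19b and miR-92a are encoded in both the miR-17 and the X-linked cluster, and the array cannot tell their sources apart.

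Probes on this platform match the 3′ end of a miR and leave out its 5′ end. The coordinates in the files (mm9) give the stretch each probe matches. The stretches of the longer probe of each member with a near relative are shown with the bases that differ from that relative in capitals, miR-17 for miR-106a, miR-93 and miR-106b, miR-20a for miR-20b, miR-18a for miR-18b and miR-92a for miR-25 and miR-363.
miR-106a, 15 bases: uAacagugcagguag
miR-20b, 20 bases: agugcuCauagugcagguag
miR-18b, 19 bases: gugcaucuagugcUgUuag
miR-106b, 17 bases: gugcuGacagugcagAu
miR-93, 16 bases: cuGUUCgugcagguag
miR-25, 18 bases: gcacuugucUcggUcugA
miR-363, 19 bases: ugcacGGUAUccAUcUGUA
In the miR-106a stretch the 1 differing base is next to the 5′ end of the match. The other miR-106a probe matches 14 bases and starts at that base. The files assign 1 of the 2 miR-17 probes, which matches 13 bases, to miR-106a as well, and those bases are identical in both miRs. The miR-363 stretch differs from miR-92a at 11 bases and the miR-93 stretch differs from miR-17 at 4, and no other mouse miR in RefSeq matched either with 2 or fewer mismatches.

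The arrays lay on 3 slides. On slide 1 were the first 2 arrays of each myeloid population. The arrays called 3 here, which have no number in the labels, shared slide 2 with LT-HSC and ST-HSC 1, and the 5 remaining HSC arrays (ST-HSC 2 and 3 and all of MPP) were on slide 3. Kind of cell and slide therefore overlap in large part, and slide 2 is the one slide with both. The LT-HSC array was the dimmest, with a summed spot signal of 308000 units against 665000 to 3290000 units on the others. Levels below are log2 signals after background subtraction by the scanner software, quantile normalization between arrays and a floor of 1.62, and a level is compared between arrays for one probe at a time. The labels were checked against miRs known for a lineage. miR-142-3p and miR-142-5p, found in all blood cells, were well above background on all 16 arrays, and the liver miR-122 and the epithelial miR-200c and miR-141 on 0. The neural miR-124 was so on 2 arrays (mean 4.40 in CMP), and the muscle miR-1 and miR-133a on 1 each (means 3.45 and 3.29 in MEP). The erythroid miR-451 averaged 12.12 in MEP, but it also stood at 11.15 on the LT-HSC array, against means of 7.44 in ST-HSC and 6.37 in MPP. In bulk samples, fewer cells of a type and less RNA per cell cannot be told apart.

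**Figure D1:**
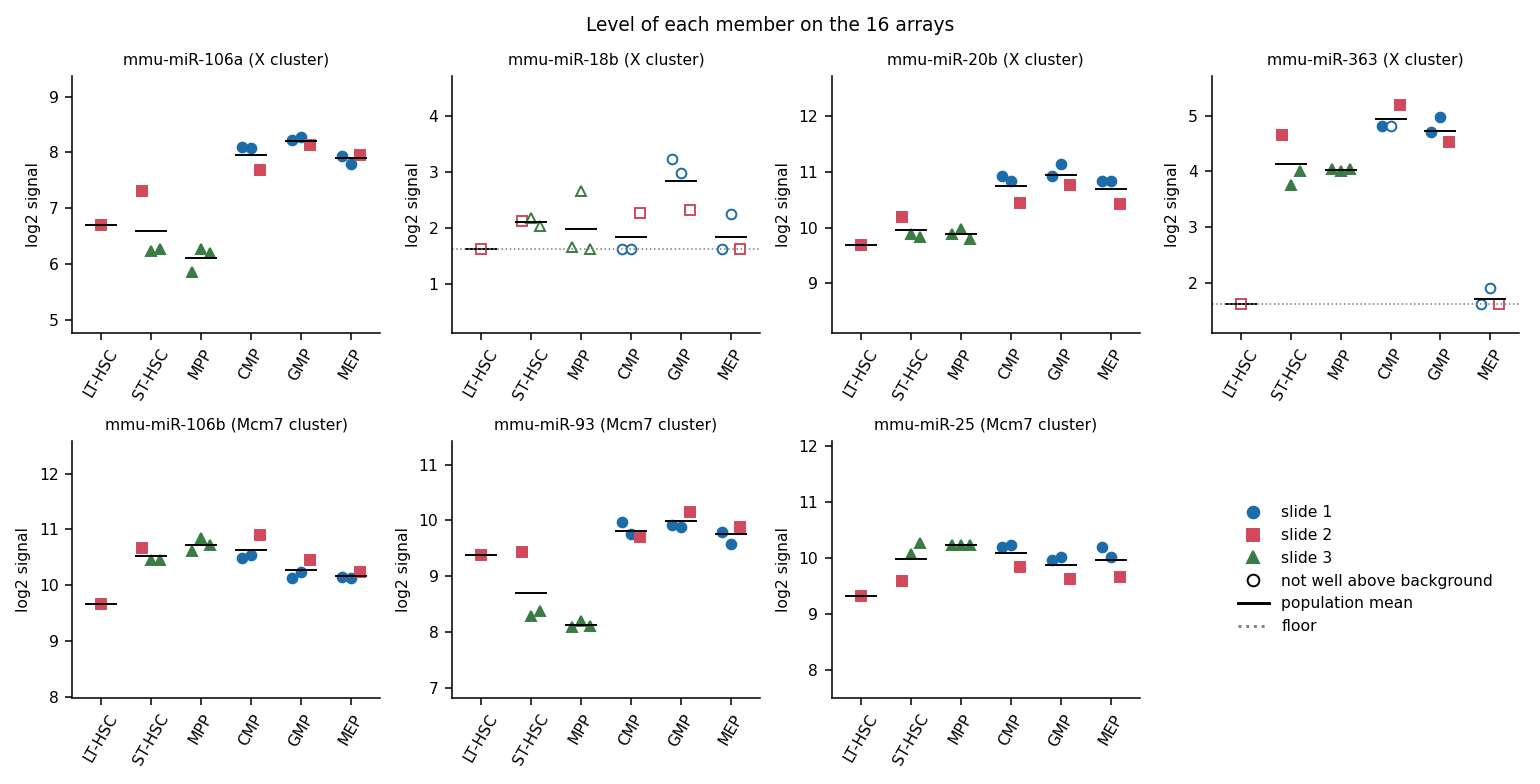
Level of each of the 7 members (log2 signal, y axis) on each of the 16 arrays, by population (x axis). Each point is an array, its shape and color give the slide, open points were not well above background, bars are population means and the dotted line is the floor of 1.62; every panel spans the same number of log2 units. miR-106a, miR-20b and miR-93 lie lower on all 7 HSC arrays than on all 9 myeloid arrays, miR-106b and miR-25 do not, and miR-363 drops to the floor in MEP and on the LT-HSC array.

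The first question was whether the members change as 2 clusters or as single miRs between stem and progenitor cells. Over all arrays miR-106a, miR-20b and miR-93 were lower in HSC subsets and did not overlap between the sides, while miR-106b and miR-25, which share a transcript with miR-93, overlapped and did not pass. On slide 2 alone the differences were -0.92, -0.61 and -0.64 for miR-106a, miR-20b and miR-363. They were -0.36, -0.51 and -0.26 for miR-106b, miR-93 and miR-25. None passed there, but neither did any other miR: limma called 0 of all 237, with 3 residual degrees of freedom. The lack of calls on slide 2 is therefore no result about the members. Across the 6 populations 5 of 6 tested members varied by limma's moderated F-test at an adjusted p under 0.05, beside 82.7% of all 237 tested miRs. miR-25 did not pass (adjusted p = 0.176). For HSC subsets against myeloid progenitors, limma called 4 of 6 members, where 48.1% of all tested miRs were called in either direction. Over the 6 members the median log2 difference was -0.74. All 4 were lower in HSC subsets, a direction in which 22.8% of tested miRs were called, or 54 miRs (29 when arrays were scaled to the 75th percentile of probes well above background on all arrays). By cluster, 3 of 3 tested X-linked members and 1 of 3 Mcm7-hosted members were called, with median log2 differences of -0.95 and -0.13, beside 0.06 over all tested miRs. With slide as a block these counts were 2 of 3 and 1 of 3, beside 105 of all 237 tested miRs. The miR-363 call rests on the LT-HSC array, and the miR-106a probes cannot be told apart from those of miR-17 (both below). The counts are therefore no result about the clusters as such.

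miR-106a, with the AAAGUGC seed, measured 6.70 on the LT-HSC array, 7.31, 6.23 and 6.26 in ST-HSC and 5.86, 6.26 and 6.19 in MPP. In CMP it measured 8.10, 8.08 and 7.69, in GMP 8.22, 8.28 and 8.14, and in MEP 7.93, 7.80 and 7.95. Every HSC array was below every myeloid array. The fitted difference was -1.55 (SE 0.178), 2.93-fold lower in HSC subsets (limma adjusted p = 1.18e-05). It was -0.86 when slide was a block (adjusted p = 0.00143), and between the arrays of slide 2 alone -0.92. The 2 HSC arrays of slide 2 (6.70 and 7.31) were above the 5 of slide 3 (5.86 to 6.26), so how much of the difference goes with the slide was not tested further.

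miR-20b, from the same precursor, measured 9.69 on the LT-HSC array, 10.19, 9.88 and 9.83 in ST-HSC and 9.88, 9.97 and 9.79 in MPP. In CMP it measured 10.93, 10.84 and 10.45, in GMP 10.93, 11.15 and 10.77, and in MEP 10.84, 10.84 and 10.42. The sides again did not overlap, with a difference of -0.95 (SE 0.137), 1.93-fold lower in HSC subsets (limma adjusted p = 9.28e-05). The slide block left -0.51 (adjusted p = 0.00668). Unlike miR-106a, its HSC levels on slide 2 (9.69 and 10.19) spanned those on slide 3 (9.79 to 9.97).

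miR-93 is the middle miR of the Mcm7-hosted cluster. Its level was 9.37 on the LT-HSC array, 9.44, 8.28 and 8.37 in ST-HSC and 8.08, 8.19 and 8.10 in MPP. It was 9.97, 9.75 and 9.71 in CMP, 9.91, 9.88 and 10.15 in GMP and 9.79, 9.58 and 9.88 in MEP. No HSC array reached a myeloid one, and the difference was -1.12 (SE 0.177), 2.17-fold lower in HSC subsets (limma adjusted p = 0.000213). The gap between slides was largest here among the members: 9.37 and 9.44 on the HSC arrays of slide 2, and 8.08 to 8.37 on those of slide 3. With slide as a block the difference was -0.56 (adjusted p = 0.00943). Every HSC array lay below every myeloid array for 3 of 6 tested members, and for 2.95% of all tested miRs, or 7 miRs. miR-17 and miR-18a of the miR-17 cluster were also among these, so the trait is not particular to the members. The probes of miR-106a and miR-17 cannot be told apart (below).

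miR-106b and miR-25 stand at the ends of the same precursor as miR-93. Over the 7 HSC arrays miR-106b ran from 9.66 to 10.84 with a median of 10.61, and over the 9 myeloid arrays from 10.12 to 10.89 with a median of 10.24. The difference of -0.05 did not pass (limma adjusted p = 0.72), and its 95% interval was -0.31 to 0.20. miR-25 ran from 9.31 to 10.27 (median 10.24) in HSC subsets and from 9.62 to 10.24 (median 10.02) in myeloid progenitors. Its difference of -0.13 did not pass either (adjusted p = 0.515, 95% interval -0.46 to 0.20). The sides overlapped for both miRs. Within arrays, miR-93 minus miR-106b averaged -1.94 in HSC subsets and -0.51 in myeloid progenitors, and miR-93 minus miR-25 averaged -1.45 and -0.13. These shifts were not tested. On slide 2 alone, the slide with both sides, miR-93 differed by -0.51, miR-106b by -0.36 and miR-25 by -0.26. There they lay closer together than over all arrays. With arrays scaled to the 75th percentile of all probes, which shifts the median of all tested miRs by -0.20, miR-106b and miR-25 were called lower in HSC subsets (-0.55, limma adjusted p = 0.0139, and -0.64, adjusted p = 0.0402).

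miR-363, the most distal miR of the X-linked cluster and by sequence the least like its miR-17 cluster counterpart, was also called lower in HSC subsets, by -0.53 (limma adjusted p = 0.0159), with overlapping sides. This call rests on the LT-HSC array: without it the difference was 0.29 and did not pass (adjusted p = 0.121). Blocking on slide gave -0.08 (adjusted p = 0.766), and the difference was 0.15 when arrays were scaled to probes detected on every array (adjusted p = 0.413). Each population counts equally in this contrast, and both sides hold a population with miR-363 at or near the floor.

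**Figure D2:**
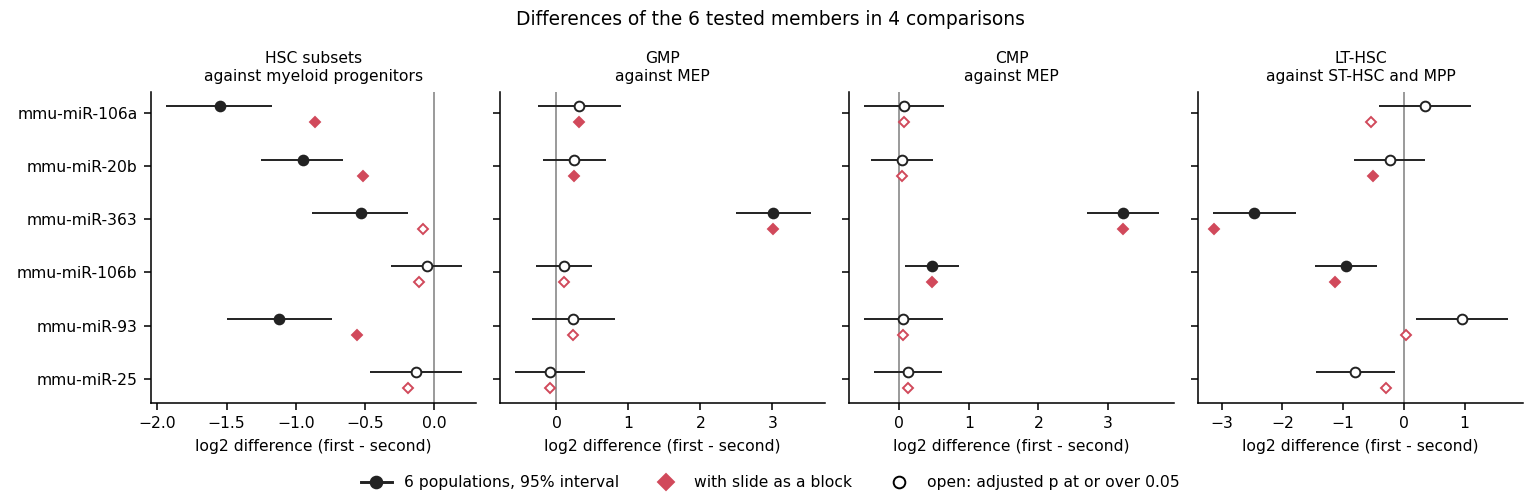
Log2 difference (x axis, first group minus second) of the 6 tested members (y axis) in 4 comparisons. Black points are the fit over 6 populations with 95% intervals, red diamonds the fit with slide as a block, and open symbols had an adjusted p at or over 0.05. In the left panel miR-106a, miR-20b and miR-93 stay below 0 under both fits while miR-363 moves from -0.53 to -0.08, and in the middle panels miR-363 stands apart at 3.01 and 3.22, values that rest on MEP levels not well above background.

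To test whether a member of one cluster changed by as much as a chosen member of the other with its seed, their difference was taken within each array. Its level has no meaning between different probes, so only its shift between the sides is read. miR-106a, miR-20b, miR-106b and miR-93 share 1 seed, so which of them are paired is a choice that bears on the shift. In another pair, miR-93 minus miR-106a, the mean was 2.14 in HSC subsets and 1.83 in myeloid progenitors, which was not tested. For miR-106a minus miR-106b the HSC arrays averaged -4.08 ± 0.672 (SD, n = 7) and the myeloid arrays -2.34 ± 0.371 (SD, n = 9), a shift of -1.75 (p = 0.000175 by a two-sided exact permutation test over 11440 splits, 0.000524 adjusted over 3 pairs). The HSC arrays ran from -4.75 to -2.97 and the myeloid arrays from -3.19 to -1.89, and so overlapped slightly. By its probes miR-106a cannot be told apart from miR-17 (below), so this shift cannot be assigned to the X-linked cluster. On slide 2 alone, with 2 HSC and 3 myeloid arrays, the shift was -0.56 (exact permutation p = 0.3, where 10 splits allow no p below 0.1).

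miR-20b minus miR-93 shifted by 0.39 (exact permutation p = 0.0894, adjusted p = 0.134), from a myeloid mean of 0.95 ± 0.264 (SD, n = 9) to an HSC mean of 1.34 ± 0.575 (SD, n = 7). It was 0.32 on the LT-HSC array but 1.68 to 1.80 in MPP. Without the LT-HSC array the shift was 0.56 (exact permutation p = 0.00759), and without ST-HSC 1, the other HSC array of slide 2, it was 0.49 (exact permutation p = 0.0418). On slide 2 alone it was -0.09 (exact permutation p = 0.7). miR-363 minus miR-25 shifted by -0.08 (exact permutation p = 0.899, adjusted p = 0.899). Without the 3 MEP arrays, an alternative chosen after the data were seen, that shift was -1.12 (exact permutation p = 0.00699).

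MEP was where miR-363 parted from the signals of the miR-106a and miR-20b probes. It measured 1.62, 1.91 and 1.62 in MEP and was well above background on 0 of 3 arrays. In GMP it measured 4.70, 4.97 and 4.52 and was well above background on 3 of 3 arrays. In CMP it measured 4.81, 4.81 and 5.20 and was well above background on 2 of 3. miR-363 was thus at least 2.10-fold higher in GMP than in MEP (limma adjusted p = 5.18e-07) and at least 2.43-fold higher in CMP than in MEP (adjusted p = 1.88e-07). The bounds set the MEP arrays at their lowest signal well above background. They hold on this scale of background-subtracted signal. The CMP bound is less firm, because it counts CMP 2, which was not well above background. The fitted differences, 3.01 and 3.22, are not firm in size. They were 3.07 and 3.04 within slide 1, and 2.90 and 3.58 on slide 2, where each population has 1 array. With the floor doubled they were 2.11 and 2.32. With normexp and an offset of 50, which compresses low signals, they were 0.40 and 0.46 (adjusted p = 0.000124 and 4.34e-05), and in the authors' log2 values 0.57 and 0.58 (adjusted p = 0.00031 and 0.00029). These 4 values lie below the bounds, in the same direction. The signal before normalization was 32.1, 41.5 and 15.1 units in GMP against 2.31, 3.24 and 1.43 in MEP. In CMP the signal was 37, 39.3 and 15.2 units. The 95th percentile of the negative controls on those CMP arrays was 30.6, 44.3 and 2.21 units.

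The probes of miR-106a and miR-20b, its neighbors on the X chromosome, did not show this drop. Their stretches differ from miR-17 and miR-20a at 1 base, and how much of their signal is X-linked was not tested. miR-106a differed by 0.32 between GMP and MEP (limma adjusted p = 0.309, 95% interval -0.25 to 0.90) and miR-20b by 0.25 (adjusted p = 0.307, 95% interval -0.19 to 0.69). Limma called 1 of 6 members for GMP against MEP, where 62.9% of tested miRs were called. The median difference was 0.24 over the 6 members and 0.44 over all tested miRs. With slide as a block limma called 3 of 6 members, where 192 of 237 tested miRs were called. Those added were miR-106a (0.32, adjusted p = 0.0467) and miR-20b (0.25, adjusted p = 0.0448). Scaling to the 75th percentile of all probes raised the median over all tested miRs by 0.61 and brought all 6 past the threshold. miR-25 was among them, at 0.96 in place of -0.09. With this scaling 133 of all tested miRs were called higher in GMP and 48 lower. miR-18b had no array well above background and was not tested. Its brightest probe reached 3.23, 2.99 and 2.32 in GMP and 1.62, 2.25 and 1.62 in MEP, none above background by the scanner's call. Without a detection filter that difference, 1.02, passed (adjusted p = 0.0422), with both groups below background.

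For CMP against MEP limma called 2 of 6 members, miR-363 and miR-106b, where 64.6% of tested miRs were called. The median difference was 0.10 over the 6 members and 0.55 over all tested miRs. miR-106b measured 10.48, 10.54 and 10.89 in CMP and 10.15, 10.12 and 10.24 in MEP. The groups did not overlap, and the difference was 0.47 (SE 0.18, limma adjusted p = 0.035). It no longer passed when CMP 3, MEP 1, MEP 2 or MPP 3 was left out, with adjusted p up to 0.118, while the slide block gave an adjusted p of 0.00165. The 4 other tested members differed by 0.04 to 0.13, all below the median over all tested miRs. For CMP against GMP limma called 0 of 6 members, 0 at an unadjusted p under 0.05, where 7.59% of tested miRs were called, with medians of 0.02 over the members and 0.01 over all. miR-106b came closest at 0.37 (adjusted p = 0.272), with no overlap between CMP and the 10.12, 10.24 and 10.45 of GMP, and passed with slide as a block (adjusted p = 0.0243).

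Within the HSC subsets, limma called 0 of 6 members for ST-HSC against MPP, 0 at an unadjusted p under 0.05, where 4.64% of tested miRs were called, with medians of 0.10 over the members and -0.09 over all. miR-93 (0.57, adjusted p = 0.287) and miR-106a (0.50, adjusted p = 0.345) had the largest differences among the members. ST-HSC 1, the 1 array of this comparison on slide 2, was the highest for both, and within slide 3 the differences were 0.20 and 0.14.

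The LT-HSC array differed from ST-HSC and MPP in miR-363 and miR-106b. With 1 LT-HSC array these values have no replicate, and its spread was assumed to be that of the other populations. miR-363 stood at the floor, with a signal of 1.11 units, against 4.66, 3.75 and 4.0 in ST-HSC and 4.04, 4.01 and 4.05 in MPP (limma adjusted p = 0.000135). The fitted -2.47 became -0.24 with normexp (adjusted p = 0.0411) and -0.39 in the authors' log2 values (adjusted p = 0.0355). No fold is given, because the lowest detected signal on that array, 4.44, exceeded the mean of the brighter arrays. miR-106b stood at 9.66 against 10.66, 10.45 and 10.45 in ST-HSC and 10.61, 10.84 and 10.72 in MPP, 1.94-fold lower on the LT-HSC array (SE 0.238, adjusted p = 0.0081). Limma called 2 of 6 members, where 29.1% of tested miRs were called, with medians of -0.52 over the members and -0.39 over all.

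Of its neighbors on the Mcm7 transcript, miR-93 stood at 0.96 (limma adjusted p = 0.0575), or -0.13 with arrays scaled to the 75th percentile of all probes, and miR-25 at -0.80 (adjusted p = 0.0607), neither past the threshold. With slide as a block these became 0.03 and -0.30, and miR-20b was called at -0.51 (adjusted p = 0.0396). Before normalization, ST-HSC 1 on the same slide was brighter than the LT-HSC array by 3.27-fold for miR-106a, 3.40-fold for miR-93, 3.76-fold for miR-25, 4.53-fold for miR-20b, 6.34-fold for miR-106b and 12.4-fold for miR-363. The 3 erythroid miRs moved with the LT-HSC array and with MEP, the samples where miR-363 was at or near the floor. miR-144, miR-451 and miR-486 measured 5.29, 11.15 and 6.34 on the LT-HSC array, averaged 9.25, 12.12 and 7.74 in MEP, and averaged 2.59, 7.44 and 2.92 in ST-HSC. Their part in the miR-363 result was not tested.

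For miR-106a and miR-93 the order of population means ran GMP, CMP, MEP, LT-HSC, ST-HSC, MPP from the highest to the lowest. For miR-20b it ran GMP, CMP, MEP, ST-HSC, MPP, LT-HSC. In all 3, MEP did not overlap the next population, the first of the HSC subsets. The gaps between means were 1.19 for miR-106a, 0.73 for miR-20b and 0.38 for miR-93. For miR-106a and miR-93 that population was LT-HSC, with 1 array. How many of all tested miRs lacked overlap between such neighbors was not counted. The other neighbors that did not overlap were GMP and CMP for miR-106a (0.25), MPP and LT-HSC for miR-20b (0.19) and ST-HSC and MPP for miR-93 (0.57). For miR-106b and miR-25 the order began with MPP, CMP and ST-HSC and ended with the LT-HSC array, and all neighbors overlapped except the last step (0.50 and 0.56). For miR-363 it ran CMP, GMP, ST-HSC, MPP, MEP, LT-HSC, and its 1 pair of neighbors without overlap was MPP and MEP, 2.32 apart.

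Over the 16 arrays, which share slides and normalization, miR-106a correlated with miR-93 (Pearson r = 0.963) and with miR-20b (r = 0.929), but with miR-106b at -0.284 and with its distal neighbor miR-363 at 0.0759. Within the Mcm7 cluster miR-93 correlated with miR-106b at -0.393 and with miR-25 at -0.452, and miR-106b with miR-25 at 0.432. miR-363 was nearest among the members to miR-106b, at 0.648. These values describe the arrays and carry no test.

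The 6 miRs of the miR-17 cluster bear on how far the X-linked values can be assigned to a locus. All 6 were tested, and limma called 4 lower and 1 higher in HSC subsets, with a median of -0.83, beside 54 lower and 60 higher of 237 tested miRs and a median of 0.06. miR-17 was lower by -1.34 (adjusted p = 1.53e-05), miR-18a by -1.36 (adjusted p = 5.26e-07), miR-20a by -0.90 (adjusted p = 0.000472) and miR-19a by -0.76 (adjusted p = 0.000616). miR-92a was higher at 0.49 (adjusted p = 0.0221), and miR-19b did not pass at 0.12 (adjusted p = 0.642). With slide as a block 3 of 6 were called, beside 105 of all 237 tested miRs. miR-92a (0.33, adjusted p = 0.123) and miR-20a (-0.27, adjusted p = 0.0963) then no longer passed. The other miR-92a probe gave 0.07.

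miR-106a followed miR-17 closely. Their within-array difference had an SD of 0.167 over 16 arrays (r = 0.985). Over the 4 probes assigned to miR-106a or miR-17, the 6 pairwise correlations were 0.976 to 0.995. The miR-106a probe of 14 bases followed the miR-17 probe of 13 bases (r = 0.995, SD of the difference 0.0799) as closely as the other miR-106a probe (r = 0.994, SD 0.112). On these probes the 2 miRs cannot be told apart, and how much of the miR-106a signal is miR-17 was not tested.

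miR-20b followed miR-20a with an SD of 0.146 (r = 0.961), and the 20-base stretch of miR-20b differs from miR-20a at 1 base. miR-18a was well above background on all 16 arrays whereas miR-18b, which differs from it at 2 bases within the probe, was so on 0. Of the X-linked members, miR-363 is the one whose probes match no miR of the miR-17 cluster closely. It followed its counterpart by seed, miR-92a, with r = 0.397 and an SD of 1.20.

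miR-93, whose stretch differs from miR-17 at 4 bases, also followed it (r = 0.972, SD 0.192). miR-106b, whose stretch differs from miR-17 at 2 bases, did not (r = -0.371, SD 0.979). The part of cross-hybridisation in these values was not tested.

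**Figure D3:**
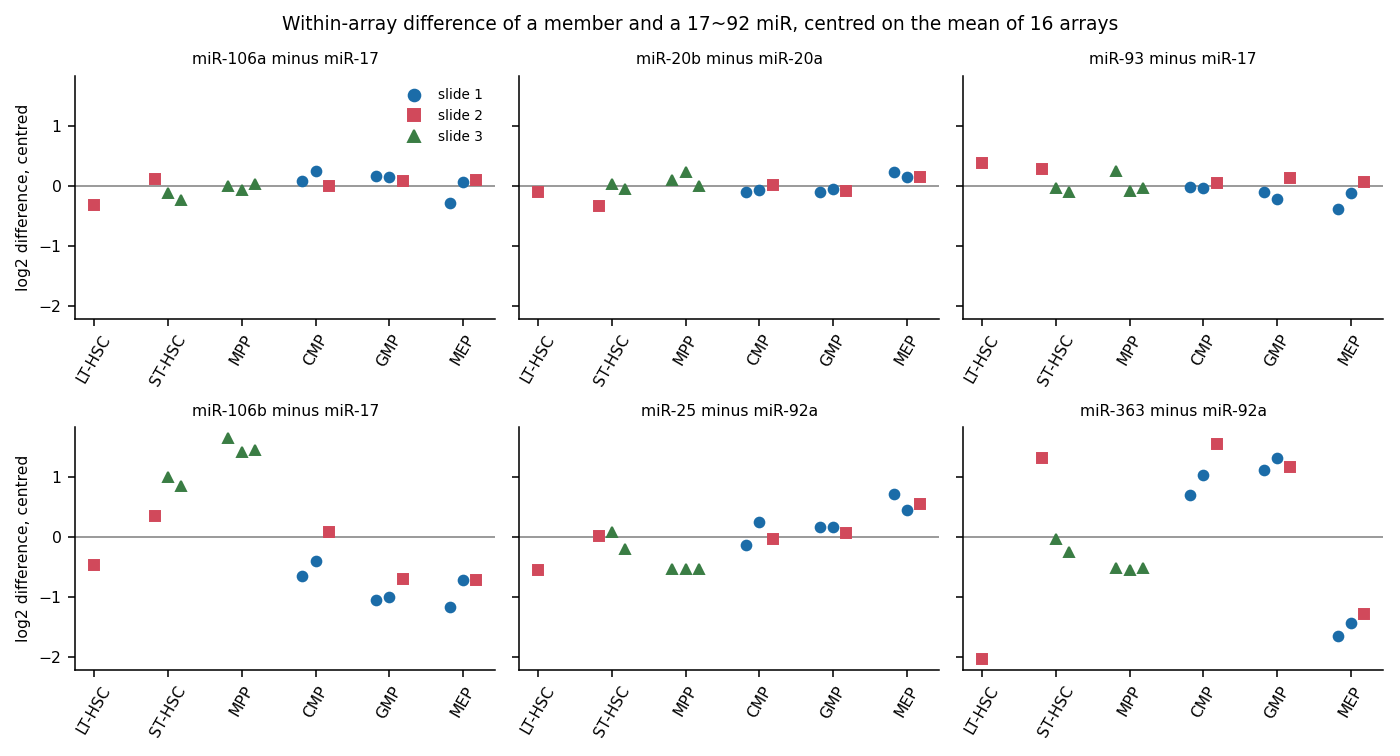
Within-array log2 difference between a member and a miR of the miR-17 cluster, centered on its mean over 16 arrays (y axis), by population (x axis), each point an array with its slide given by shape and color. The top row, miR-106a with miR-17, miR-20b with miR-20a and miR-93 with miR-17, stays near 0 (SD 0.167, 0.146 and 0.192), while miR-106b with miR-17 and miR-363 with miR-92a swing by population (SD 0.979 and 1.20).

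Each tested member had 2 probes, and in all 6 both gave the same sign for HSC subsets against myeloid progenitors. The other probe gave -1.42 for miR-106a, -1.06 for miR-20b, -1.07 for miR-93, -0.66 for miR-363, -0.15 for miR-106b and -0.32 for miR-25, beside -1.55, -0.95, -1.12, -0.53, -0.05 and -0.13 from the probe used. For GMP against MEP the 2 probes of miR-363 gave 2.83 and 3.01. Those of miR-25 disagreed in sign there, at 0.17 and -0.09. On the LT-HSC array the other miR-106b probe was lower by more, at -1.43 in place of -0.96. The correlation between the 2 probes over 16 arrays was lowest for miR-25 (0.805) and highest for miR-106a (0.994).

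**Figure D4:**
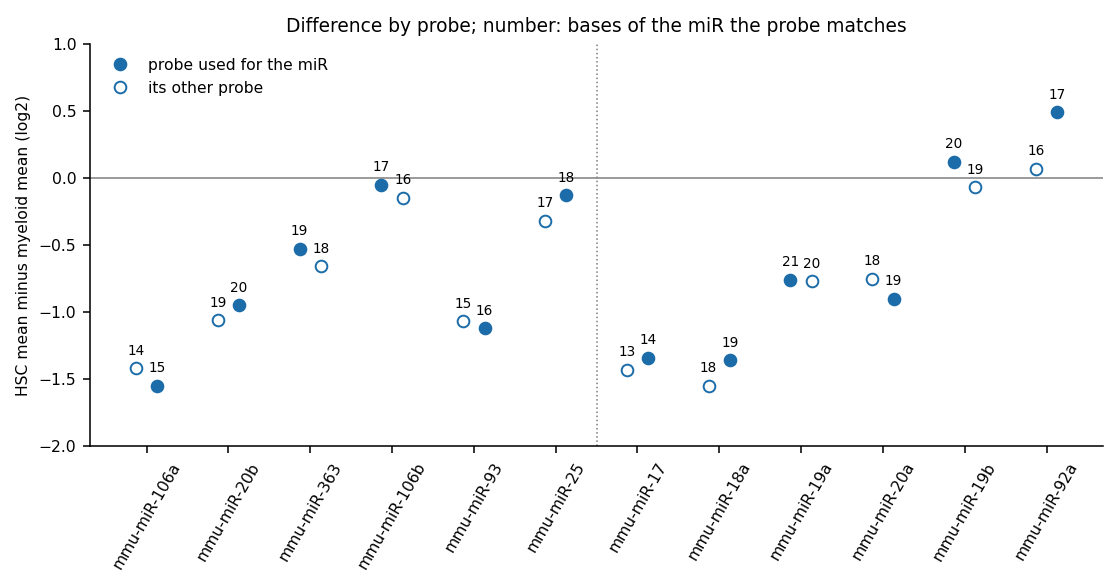
HSC mean minus myeloid mean (log2, y axis) for each probe of the 6 tested members and, right of the dotted line, the 6 miRs of the miR-17 cluster (x axis), with the number of matched bases above each point. Filled points are the probes used and open points the other probe of the same miR. The 2 probes of each member have the same sign. miR-106b lies near 0 by both probes (-0.05 and -0.15), while the probes of miR-25 lie at -0.13 and -0.32.

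The opposite arms of the precursors, marked with an asterisk on this array, gave another reading of the Mcm7-hosted and miR-17 transcripts. Of 14 arms listed for the 3 clusters, 8 were on the array and 6 passed the filter. These were miR-106b* and miR-93* of the Mcm7-hosted cluster and miR-17*, miR-18a*, miR-19a* and miR-20a* of the miR-17 cluster. No arm of the X-linked cluster passed. Limma called 4 of these 6 lower and 0 higher in HSC subsets, beside 54 of 237 tested miRs lower. The median was -0.79, and 0.06 over all tested miRs. Of these 4, only miR-106b* is from the Mcm7-hosted cluster, and the others are from the miR-17 cluster. In GMP against MEP limma called 5 of 6 higher in GMP, beside 40.9% of tested miRs called in that direction. The medians were 1.05 and 0.44. Some arms passed the detection filter mainly through the arrays where they were high, so neither count is evidence of a direction. miR-19a* was well above background on 3 of 3 GMP and 0 of 3 MEP arrays, and miR-93* on 2 of 3 and 0 of 3. miR-106b* is the other strand of the miR-106b hairpin. It measured 2.95 on the LT-HSC array, 4.24, 2.83 and 3.12 in ST-HSC, 2.35, 2.61 and 2.66 in MPP, 4.92, 5.02 and 5.09 in CMP, 5.48, 5.72 and 5.29 in GMP and 3.72, 3.65 and 4.29 in MEP. The scanner called it well above background on 7 of 9 myeloid arrays but 1 of 7 HSC arrays. It thus passed the filter mainly through the side where it was high, and its p-values are no evidence of a direction. miR-106b* and miR-106b were not compared by a test. The sides overlapped only at ST-HSC 1 and MEP, and the difference was -1.84 (limma adjusted p = 1.18e-05, size not firm), or -1.22 with slide as a block (adjusted p = 0.00104), where miR-106b itself differed by -0.05. Between GMP and MEP miR-106b* differed by 1.61 (adjusted p = 0.000643), with 1 of 3 MEP arrays well above background, so that its size is not firm, where miR-106b differed by 0.10 (adjusted p = 0.65). miR-93* was well above background on 3 of 16 arrays, at -0.51 in HSC subsets (adjusted p = 0.0502).

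The miRs outside the members whose levels were most like each member over the 16 arrays were chosen by Pearson r. miR-106a was most like miR-17 (0.985) and miR-186 (0.954), miR-20b like miR-20a (0.961) and miR-15b* (0.905), and miR-93 like miR-17 (0.972) and miR-16 (0.956). miR-363 was most like miR-503 (0.949) and miR-130b (0.945). miR-25 was most like miR-374 (0.938) and miR-674* (0.927), and miR-106b like miR-30e* (0.781) and miR-15b (0.759), the lowest pair of values among the 6.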

How the data were processed

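Total RNA of sorted populations was labelled with Cy3 and hybridised to 16 one-colour Agilent mouse miR arrays. Per the file headers, the authors' scanner output holds each spot's intensity, background-subtracted by Feature Extraction 9.5.3.1 on slide 1 and 10.2.1.3 on slides 2 and 3, with other columns giving yes-or-no calls of spots well above background; the probe annotation is mm9. A table of log2 values that the authors normalized by quantiles (limma, per the labels) served as an alternative.

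Outlier and control spots were removed, spots of a probe were averaged, and arrays were quantile normalized. Signals below a floor of 3.07 units, set from the negative controls, were raised to it before log2. Detection of a probe on an array required the scanner's call for 0.5 or more of its kept spots. Probes well above background on at least 3 arrays passed (493 probes, 237 miRs, 6 of 7 members), and the brightest stood for its miR. One mean per population was fitted with lmFit and eBayes of limma 3.58.1 (R 4.3.3; 10 residual and 3.1 prior degrees of freedom), two-sided, with Benjamini-Hochberg adjustment over 237 miRs and a threshold of 0.05. The side contrast weights populations equally. Pair differences were tested by exact permutation over arrays. Fits were checked on simulated data. The number of arrays limits the precision. Alternatives covered normalization, background, floor, filter, probes, slide, replicate number and each array left out.

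The members were named by the request and, with the miR-17 cluster, opposite arm and marker lists and the rule for alike miRs, were chosen with earlier results of these data known. Sequences were matched by name in RefSeq for all 7 members, and the end shared by all probes of a miR was taken as its 3′ end, which lay at the same distance from the RefSeq end within each cluster.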

Additional observations from a re-analysis of the deposited data

Results flagged for a closer look

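In 14 sets of values, each member on the 7 HSC arrays and on the 9 myeloid arrays, 2 had an array far from the others by Dixon's test, and chance flags about 1 in 20 such groups. Both were the LT-HSC array. For miR-363 among the HSC arrays it lay at 1.62, the floor, with 3.75 next, a gap of 0.70 of the whole range. For miR-106b it lay at 9.66 with 10.45 next, a gap of 0.671 of the range. The HSC side holds 3 populations and the LT-HSC array is the only one of its population, so population and array cannot be told apart. It was also the dimmest array.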

How the results depend on the processing

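Single-member results stayed on their side of the threshold in 529 comparisons with an alternative, 504 of them with the same sign or at 0 and 25, all uncalled under both settings, with the other sign. Another 29 newly passed, 10 no longer passed, and 2 changed sign with a call under one of the settings: miR-363 in HSC subsets against myeloid progenitors (0.15, scaling to the 75th percentile of probes well above background on all arrays) and miR-25 in GMP against MEP (0.96, 75th percentile of all probes). Fits with 1 array left out are not in these counts. Among them miR-363 in HSC subsets against myeloid progenitors also changed sign, to 0.29 without the LT-HSC array. Calls changed there too for miR-106b in CMP against MEP and for miR-93 and miR-25 on the LT-HSC array. For the LT-HSC array, 4 members in place of 2 were called under either percentile scaling, no normalization, normexp, the authors' log2 values, an intensity trend or an unadjusted p, and between 2 and 4 with 1 array left out (4 without ST-HSC 1). The LT-HSC array itself could not be left out there. Which members were added, and their direction, depended on the setting. In the authors' log2 values they were miR-93 (0.86) and miR-25 (-0.69). By the 75th percentile of probes well above background on all arrays they were miR-106a (1.06) and miR-93 (1.09). By the 75th percentile of all probes they were miR-20b (-1.52) and miR-25 (-1.89). For GMP against MEP the count was 6 by the 75th percentile of all probes, 3 with slide as a block, 2 within slide 1, 2 with no detection filter and 0 when detection on all arrays was required, which removes miR-363. For CMP against MEP it was 1 with no normalization or with detection on all arrays, and 1 to 2 with 1 array left out. For CMP against GMP it was 1 with slide as a block, where 68 of all 237 miRs were called, and 0 in every leave-one-out. For HSC subsets against myeloid progenitors it was 3 to 4 with 1 array left out but 0 within slide 2, where 0 of all 237 miRs passed. Leaving out 1 array moved miR-106a minus miR-106b between -1.93 and -1.64, miR-20b minus miR-93 between 0.32 and 0.56 and miR-363 minus miR-25 between -0.38 and 0.16. Slide as a block gave -0.56 for the first of these pairs and -0.09 for the next, and leaving out MEP, chosen after the data were seen, gave -1.12 for the last. Deviations of same-numbered arrays correlated at -0.375 to 0.632 over 30 pairs, 12 of them over 0.1. Within CMP, GMP and MEP all 9 pairs were over 0.1 (0.227 to 0.632), but there the number goes with the slide and the arrays called 3 were named by accession order, so the numbers were not taken as a pairing. With the replicate block, 4, 1, 0, 2, 0 and 2 members were called for HSC subsets against myeloid progenitors, GMP against MEP, CMP against GMP, CMP against MEP, ST-HSC against MPP and the LT-HSC array, 5 by the F-test, and the pair shifts were -1.79, 0.42 and -0.06. Signal near background limits miR-363 and miR-18b.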
